A study of Homo sapiens with 26 samples.

Results

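The genes described here are the human replication-dependent histone genes, taken as every row whose gene symbol begins with HIST1H, HIST2H, HIST3H or HIST4H. The rule found 72 of the 19478 rows that the 4 deposited count tables share. They carry 71 symbols, because HIST1H3D appears on 2 transcripts. By symbol, 6 rows belong to the linker histone class H1, 17 to H2A, 18 to H2B, 16 to H3 and 15 to H4. The symbols place 56 of them in HIST1 on chromosome 6, 12 in HIST2 on chromosome 1, 3 in HIST3 on chromosome 1 and 1 in HIST4 on chromosome 12. HIST2H3PS2 lies apart from the other HIST2 genes. It starts at base 143905556 of chromosome 1, where the others span 149810406 to 149887916. No member was at 0 in all 26 libraries, but 4 members had under 10 counts in every undepleted library.

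Nucleosomes are made of DNA wound on an octamer of H2A, H2B, H3 and H4, and H1 binds the linker DNA between them. Each class is encoded by many short, intronless genes, most of which are transcribed when DNA is replicated and whose mRNAs end in a conserved stem-loop rather than a poly(A) tail. The stem-loop is bound by SLBP, and because copies of a class encode nearly the same protein, their coding sequences can be alike over stretches longer than a ribosome footprint.

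The libraries hold ribosome footprints, the mRNA fragments left under ribosomes after RNase I digestion, of 3 established human cell lines. HEK293T and HEK293FT derive from embryonic kidney cells and K562 from a chronic myeloid leukaemia. By its title, the series concerns biases that nuclease-based removal of ribosomal RNA leaves in such libraries. The labels name no separate cultures behind replicates, so p-values measure the spread between libraries, which may be technical. In HEK293T there were 2 libraries each of undepleted RNA, Ribo-Zero Gold, RiboCop and NEBNext, all from fragments of 15 to 35 nt. In a first K562 experiment, called the size experiment here, 1 undepleted and 1 NEBNext library were made from fragments of 20 to 34 nt and 1 of each from 20 to 60 nt. Both libraries titled undepleted there carry a second label naming NEBNext, and every direction from that experiment rests on the titles. In a second K562 experiment, called the kit experiment, all libraries came from 20 to 34 nt. It had 2 undepleted, 2 FastSelect, 2 riboPools and 2 riboPools cold libraries, and 4 single Ribo-Zero Plus libraries (plain, with formaldehyde, with oligos, and with both). HEK293FT had 1 undepleted library and 1 library with custom oligos, from 15 to 35 nt. NEBNext and Ribo-Zero Plus digest the ribosomal RNA that DNA probes have bound, Ribo-Zero Gold, RiboCop and riboPools pull it out with probes, and FastSelect keeps it from being reverse transcribed.

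Totals ran from 120019 to 421521 counts in HEK293T, from 46858 to 441249 in the K562 size experiment, from 116742 to 5795774 in the kit experiment, and were 900763 and 5747772 in HEK293FT. The labelled lines were checked against markers. Levels are given as CPM, the counts out of every 1000000 counts of the library. The summed level of 10 erythroid genes was 3821 to 13088 CPM in the 16 K562 libraries and at most 6.52 in the HEK293T and HEK293FT libraries. The summed level of 4 genes of the kidney lines was 285 to 782 CPM there and at most 0.969 CPM in K562. NEFM, NEFL and CDH2 made up nearly all of it. PAX2 was at 8.33 CPM in undepleted HEK293T replicate 1, 1.04 CPM in the HEK293FT custom-oligo library and 0 in the other kidney-line libraries. This list serves both kidney lines, so HEK293T was not checked against HEK293FT.

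The sequences set the limits of what can be told apart, so they are given before the values. HIST2H4A and HIST2H4B, the H4 genes with the most footprints in HEK293T, are the same over the whole coding sequence. So are HIST1H4J and HIST1H4K, the H4 genes with the most footprints in undepleted K562 libraries. Other H4 copies differ from them at many positions. The first 60 bases of the coding sequence of 7 H4 genes show this, with capitals for each base that differs from HIST2H4A (GENCODE 29 transcripts, GRCh38).
HIST2H4A: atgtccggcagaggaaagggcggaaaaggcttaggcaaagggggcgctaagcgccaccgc
HIST2H4B: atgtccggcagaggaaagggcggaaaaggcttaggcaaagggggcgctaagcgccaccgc
HIST1H4J: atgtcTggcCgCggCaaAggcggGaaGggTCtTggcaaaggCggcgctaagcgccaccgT
HIST1H4K: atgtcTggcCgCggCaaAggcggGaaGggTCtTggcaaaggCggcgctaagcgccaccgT
HIST1H4C: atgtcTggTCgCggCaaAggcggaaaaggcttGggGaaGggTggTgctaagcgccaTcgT
HIST1H4I: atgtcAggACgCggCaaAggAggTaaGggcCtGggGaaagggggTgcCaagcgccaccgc
HIST4H4: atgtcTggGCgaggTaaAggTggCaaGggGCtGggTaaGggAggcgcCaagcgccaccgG
Over these 60 bases HIST1H4J and HIST1H4K differ from HIST2H4A at 12 positions, HIST1H4C at 13, HIST1H4I at 14 and HIST4H4 at 16.

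H3 genes of the HIST2 cluster are just as close. HIST2H3A and HIST2H3C have identical coding sequences, HIST2H3D differs from them at 1 of the first 60 bases, and HIST1H3B, the leading H3 gene of the HIST1 cluster, at 12 (capitals mark differences from HIST2H3A).
HIST2H3A: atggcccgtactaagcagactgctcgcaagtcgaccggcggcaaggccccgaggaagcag
HIST2H3D: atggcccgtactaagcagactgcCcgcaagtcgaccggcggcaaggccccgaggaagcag
HIST1H3B: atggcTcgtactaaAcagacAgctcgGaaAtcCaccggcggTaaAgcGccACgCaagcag

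Windows of 28 nt, about the length of a footprint, were compared across all coding sequences of the annotation. H1 genes were the most distinct, with a median of 99.2% of windows found nowhere else, followed by H4 with 95.4%, H3 with 89.6%, H2A with 74.9% and H2B with 67.0%. At least 50% of the windows were unique in 53 of the 72 rows, and 8 rows had no unique window. These 8 form 4 pairs with identical coding sequences, HIST2H2AA3 with HIST2H2AA4, HIST2H3A with HIST2H3C, HIST2H4A with HIST2H4B and HIST1H4J with HIST1H4K. HIST1H2AD has 1.6% unique windows, since the 510-nt coding sequence of the longer HIST1H3D transcript runs through it on the same strand, so reads of HIST1H2AD cannot be told from reads of that transcript. The longer HIST1H3D transcript has 8.7% unique windows. By its symbol it counts as H3 in all class totals below, although its coding sequence runs through an H2A gene. HIST1H2BK has 11.9%, and shares 270 windows with coding sequences outside this group.

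The deposited counts divide the identical pairs almost evenly. Over all 26 libraries together, HIST1H4J had 41697 counts and HIST1H4K 41605, HIST2H3A 62835 and HIST2H3C 62264, HIST2H2AA3 49840 and HIST2H2AA4 49953, and HIST2H4A 43607 and HIST2H4B 43579. The exact binomial 95% interval of the first gene's share held 50% in 26 of 26 libraries for the first and second of these pairs, in 25 for the third and in 23 for the fourth. The counts of a pair were equal in at most 1 of the 26 libraries, so a pair's reads were not split into equal integers. For these 8 rows the level of a single gene is not measured, and only the level of the pair is.

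**Figure D1:**
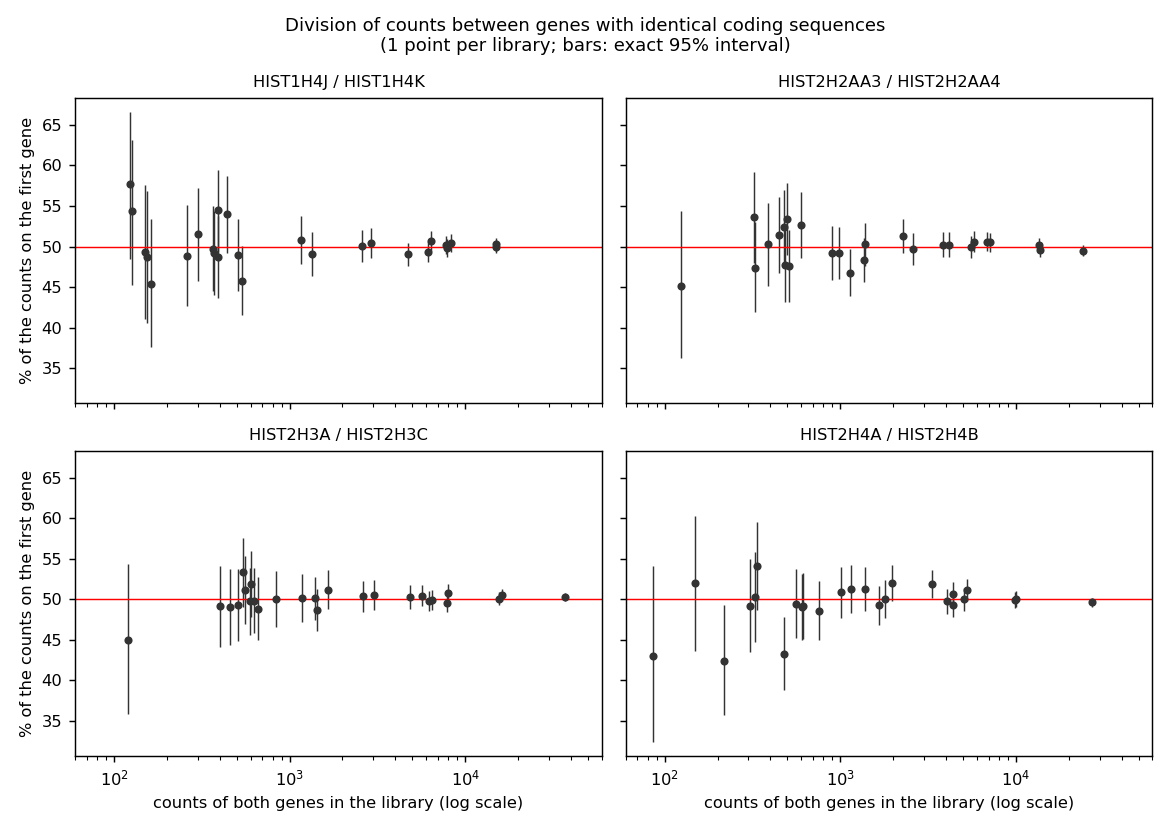
Each panel plots, for 1 pair of genes with identical coding sequences, the percent of the pair's counts given to the first gene (y) against the pair's counts in the library (x, log scale), with 1 point per library and exact 95% binomial intervals, which cover counting error only. The points lie between 42.4% and 57.7% and close on 50% (red line) as counts rise.

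The stem-loop was looked for within 120 nt after the stop codon, on the transcript strand. The histone stem-loop consensus, of 16 bases with open positions in arms and loop, was found in 21 of the 18948 deposited transcripts with a coding sequence in the annotation (0.111%), all of them members. A wider form, which contains the consensus with 1 more open position in each arm and was added after the first result was seen, was found in 30 members and in 2 other genes, H2AFX and TIPARP (0.169% in all). The annotated transcript of 35 members ends at the stop codon, so those could not hold it. Of 33 members with at least 60 nt of 3′ UTR, 29 had the wider form. The common form in H2A, H2B and H3 genes and both forms found in H4 genes were these, with the arms of the stem in capitals.
17 members of H2A, H2B and H3: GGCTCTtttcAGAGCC
5 members of H4: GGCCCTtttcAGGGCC
3 members of H4: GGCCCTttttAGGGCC
The last form is that of HIST1H4I, HIST2H4A and HIST2H4B.

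In undepleted libraries the histone genes held 5.0% ± 0.079 (SD, n = 2) of all counts in HEK293T, 4.63% ± 0.042 (SD, n = 2) in the K562 kit experiment, 4.73% in each of the 2 undepleted libraries of the K562 size experiment and 5.65% in HEK293FT. The lines divided this share differently among classes. H1 held 0.756% ± 0.0045 (SD, n = 2) of HEK293T counts, 0.890% ± 0.0072 (SD, n = 2) of K562 kit counts and 0.630% of HEK293FT counts. H3 held 1.09% ± 0.091 (SD, n = 2), 0.890% ± 0.017 (SD, n = 2) and 1.46% in the same order, and H4 0.998% ± 0.033 (SD, n = 2), 0.838% ± 0.019 (SD, n = 2) and 1.10%. H2A held 1.12% ± 0.0082 (SD, n = 2), 1.08% ± 0.022 (SD, n = 2) and 1.29%, and H2B 1.03% ± 0.034 (SD, n = 2), 0.932% ± 0.0092 (SD, n = 2) and 1.18%. No test was run on these totals, and HEK293FT has no replicate. In these bulk libraries, more cells in S phase and more histone translation per cell cannot be told apart.

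Core histones enter the octamer in equal numbers, so their footprints were also compared per kilobase of coding sequence. In undepleted libraries, the densest of the classes H2A, H2B, H3 and H4 exceeded the thinnest by 1.13 to 1.40 times. H1 density over the mean of the 4 core classes was 0.413 and 0.400 in the HEK293T replicates, 0.288 in HEK293FT, and 0.537 and 0.553 in the K562 kit replicates. The replicates of HEK293T and K562 did not overlap in this ratio.

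**Figure D2:**
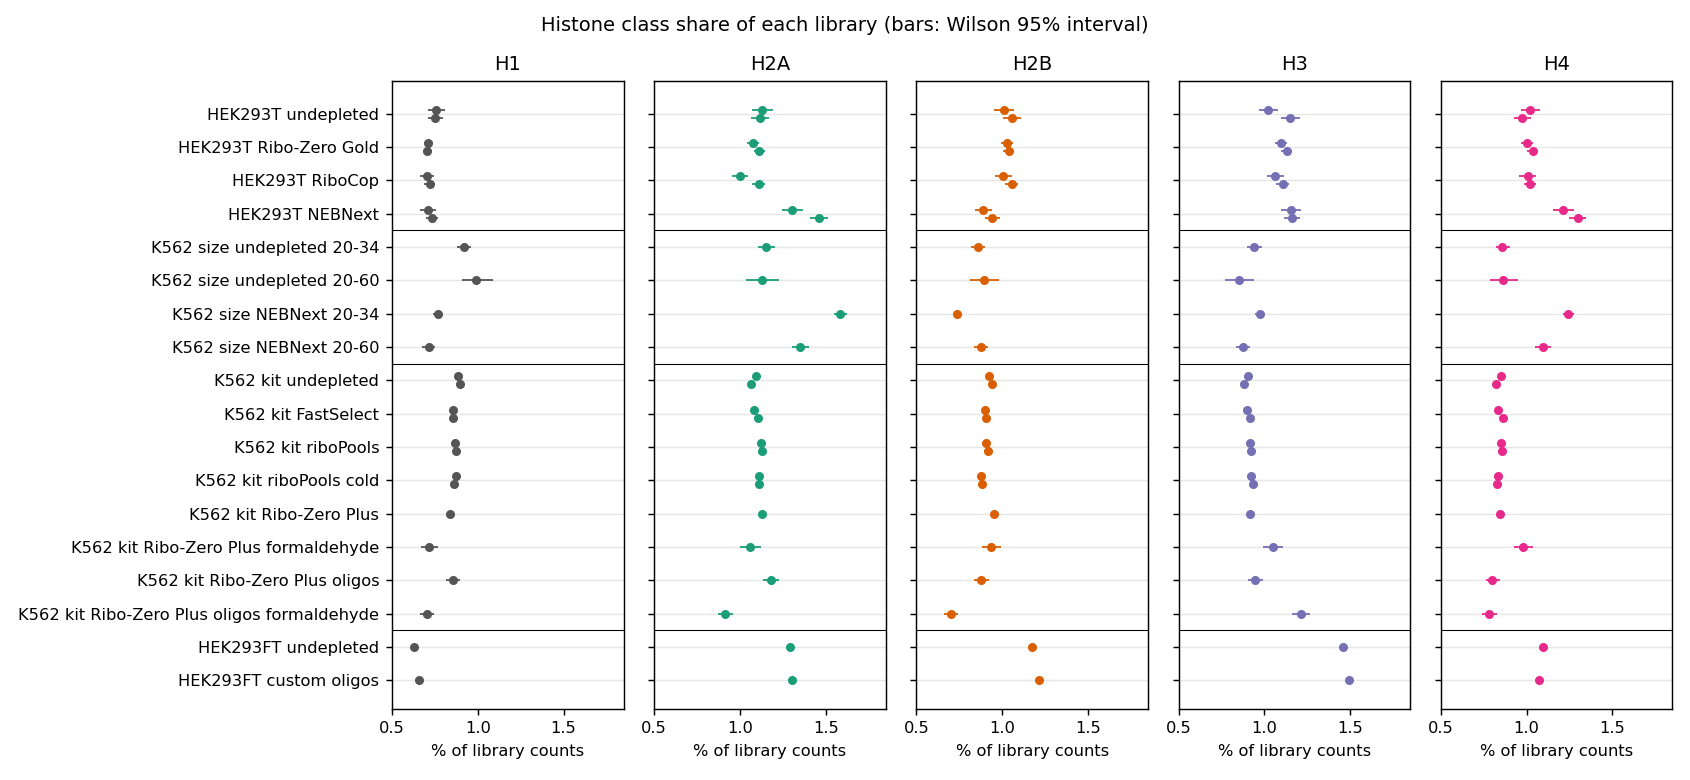
Percent of each library's counts (x) that fall on each histone class, 1 panel per class, with 1 point per library, Wilson 95% intervals and lines between the 4 experiments. In the HEK293T and K562 size rows the NEBNext points for H2A and H4 lie to the right of the undepleted ones, and the FastSelect, riboPools, Ribo-Zero Gold and RiboCop points stay near them.

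Since only the level of an identical pair is measured, the leading genes of each class were ranked with each pair summed as 1 unit, an alternative added after the data were seen. A pair's level is then the sum of 2 genes. Levels in this paragraph and the next are CPM per kilobase of coding sequence (CPM/kb) in undepleted libraries. H1 had the same 2 leading genes in every line, and the same pair led H2A and the same pair led H3 in every line. HIST1H1C (H1.2) and HIST1H1E (H1.4) led H1, at 5663 ± 85.3 and 5033 ± 30.6 CPM/kb (SD, n = 2) in HEK293T and at 8272 ± 27.5 and 3557 ± 21.9 CPM/kb (SD, n = 2) in the K562 kit experiment. In HEK293FT, HIST1H1E was at 4893 CPM/kb and HIST1H1C at 4532 CPM/kb. HIST2H2AA3 with HIST2H2AA4 led H2A at 8354 ± 121 CPM/kb (SD, n = 2) in HEK293T, 5747 ± 138 CPM/kb (SD, n = 2) in K562 and 10816 CPM/kb in HEK293FT. The next H2A gene was HIST2H2AC in HEK293T (3002 ± 15.2 CPM/kb, SD, n = 2) and HEK293FT (4196 CPM/kb), and HIST1H2AG in K562 (3279 ± 93.8 CPM/kb, SD, n = 2). HIST2H3A with HIST2H3C led H3 at 9888 ± 882 CPM/kb (SD, n = 2) in HEK293T, 6349 ± 219 CPM/kb (SD, n = 2) in K562 and 15243 CPM/kb in HEK293FT. HIST1H3B was next in each line, at 5683 ± 640, 5361 ± 105 (SD, n = 2 each) and 5764 CPM/kb.

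H4 and H2B had different leaders in K562 and in the kidney lines. HIST2H4A with HIST2H4B led H4 at 12210 ± 786 CPM/kb (SD, n = 2) in HEK293T and 15589 CPM/kb in HEK293FT, where HIST1H4J with HIST1H4K stood at 3209 ± 107 (SD, n = 2) and 4754 CPM/kb. In K562 HIST1H4J with HIST1H4K led at 8148 ± 150 CPM/kb (SD, n = 2), before HIST2H4A with HIST2H4B at 5571 ± 29.2 CPM/kb (SD, n = 2). HIST2H2BF led H2B in HEK293T at 4375 ± 465 CPM/kb (SD, n = 2), followed by HIST1H2BJ at 3626 ± 24.5 CPM/kb (SD, n = 2), and in HEK293FT at 4869 CPM/kb, followed by HIST2H2BE at 4409 CPM/kb. In K562 HIST1H2BG and HIST1H2BJ were highest at 2623 ± 77.9 and 2505 ± 148 CPM/kb (SD, n = 2), within 1 SD of each other. The same unit as in the kit experiment came first in each class in both undepleted libraries of the K562 size experiment. Ranked singly, with each gene of a pair at about 0.5 of its level, HIST1H2AG would come first among K562 H2A genes and HIST1H3B among H3 genes in HEK293T and K562. Per kilobase of unique windows alone, which leaves identical pairs out, only H1 kept the leader of the single-gene ranking in each of HEK293T, K562 and HEK293FT.

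Summed over members, the HIST2 genes held 34.8% ± 0.60 (SD, n = 2) of the histone counts in HEK293T, 42.2% in HEK293FT and 22.7% ± 0.20 (SD, n = 2) in the K562 kit experiment. HIST1 genes held 62.0% ± 0.77 (SD, n = 2), 55.3% and 76.2% ± 0.21 (SD, n = 2). HIST1H1T, HIST1H2AA and HIST1H2BA, known from testis, and HIST1H1A had no count in either undepleted HEK293T library, which allows up to 25 CPM in replicate 1 and 19.5 CPM in replicate 2 by counting error (3 counts).

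The question of which histone genes differ between lines was put to the 7 undepleted libraries of the 4 tables in 1 fit (edgeR's quasi-likelihood test, Benjamini-Hochberg adjustment over all genes tested, adjusted p under 0.05). Each line was profiled in an experiment of its own, so line and experiment are confounded, but K562 was profiled in 2 experiments. Between those, 1 of 62 members tested was called, HIST2H2BF, 0.54 ± 0.14 (SE) lower on the log2 scale in the size experiment (adjusted p = 0.0381; 0.288% of all 5551 genes were called, 0.216% higher and 0.0721% lower). That call was lost when any 1 of the 4 K562 libraries was left out. Both K562 experiments are compared with the same 2 HEK293T libraries below, and so are the HEK293FT values.

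Between K562 and HEK293T, HIST1 genes were called in both directions and genes of HIST2, HIST3 and HIST4 only as lower in K562. Of 62 members tested, 43 were called between the kit experiment and HEK293T, 24 higher and 19 lower in K562, where 44.5% of all genes were called (22.8% higher and 21.7% lower). With libraries scaled by total counts, which moved the median of all genes to -0.12 on the log2 scale, the split was 20 higher and 24 lower, and with relative log expression factors 21 and 21. In HIST1, 24 of 46 tested members were higher and 6 lower. In HIST2, 10 of 12 were lower and none higher, and under both other scalings none was higher either. The 12 hold the identical pairs HIST2H2AA3 with HIST2H2AA4, HIST2H3A with HIST2H3C and HIST2H4A with HIST2H4B, so fewer than 12 separate levels were measured. The median log2 difference over members was 0.084 (all genes 0.0092), and it was 0.38 in HIST1 and -0.46 in HIST2. By class, taken from the symbol, 2 H1, 6 H2A, 8 H2B, 5 H3 and 3 H4 genes rose, and 1, 4, 5, 4 and 5 fell. The H3 rises include the longer HIST1H3D transcript, whose reads cannot be told from those of the H2A gene HIST1H2AD. In the size experiment 31 of 62 were called, 14 higher and 17 lower (29.3% of all genes called, 16.5% higher and 12.8% lower). Total-count scaling moved the median of all genes to -0.11 there. Its count was 19 without the undepleted 20-34 library and 20 without HEK293T undepleted replicate 2.

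The largest rises in K562 lay in single HIST1 genes with few footprints in HEK293T. HIST1H2BG, an H2B gene, was at 66.7 and 39.1 CPM in the HEK293T replicates, 86.6 CPM in HEK293FT, 978 and 1020 CPM in the K562 kit replicates, and 1130 (20-34 nt) and 1131 CPM (20-60 nt) in the size experiment. All 4 K562 libraries stood above all 3 kidney-line libraries, and the log2 difference of the kit experiment from HEK293T was 4.41 ± 0.22 (SE; adjusted p = 8.31e-86). HIST1H2AE, its neighbour, an H2A gene, was at 50, 45.6 and 74.4 CPM in the same kidney-line libraries and at 894, 894, 983 and 918 CPM in those of K562. Its log2 difference was 4.36 ± 0.23 (SE; adjusted p = 7e-77). HIST1H1B, which encodes the linker histone H1.5, was at 16.7, 52.1 and 18.9 CPM in the kidney lines and at 672, 666, 846 and 768 CPM in K562, a log2 difference of 4.32 ± 0.26 (SE; adjusted p = 3.13e-58). These 3 genes had the highest differences in the size experiment too, at 4.58 for HIST1H2BG, 4.47 for HIST1H2AE and 4.62 for HIST1H1B. Their HEK293T values rest on few counts, 8 and 6 for HIST1H2BG, 6 and 7 for HIST1H2AE and 2 and 8 for HIST1H1B.

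HIST1H4I, an H4 gene, was at 33.3, 65.2 and 83.3 CPM in the kidney lines, with 4 and 10 counts in HEK293T. In K562 it was at 424 and 400 CPM in the kit experiment and at 378 CPM (20-34 nt) and 149 CPM (20-60 nt, 7 counts) in the size experiment. The log2 difference from HEK293T was 3.14 ± 0.27 (SE; adjusted p = 3.19e-29) for the kit and 2.82 ± 0.36 (SE; adjusted p = 2.23e-13) for the size experiment. The shorter HIST1H3D transcript, an H3 gene next to HIST1H2AD, was at 16.7, 26.1 and 16.7 CPM in the kidney lines and at 158 to 195 CPM in the 4 K562 libraries (log2 difference 3.16 ± 0.41, SE; adjusted p = 1.17e-13). Its HEK293T values rest on 2 and 4 counts. The longer HIST1H3D transcript, which shares reads with HIST1H2AD, was at 325, 345 and 250 CPM in the kidney lines. In the 4 K562 libraries it was at 320 to 447 CPM, and it rose by only 0.52 from HEK293T to the kit experiment. HIST1H4J and HIST1H4K, the identical pair, rose by 1.40 and 1.57 on the log2 scale.

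Falls in K562 were spread over all 4 clusters. HIST1H3A, an H3 gene at the start of the HIST1 cluster, was at 450 and 489 CPM in HEK293T, 417 CPM in HEK293FT, 87.2 and 85.3 CPM in the K562 kit replicates and 89.4 CPM in the 20-34 nt library of the size experiment. It had 0 counts in the 20-60 nt library, the shallowest, which allows up to 64.0 CPM. It fell by 2.31 on the log2 scale (SE 0.19; adjusted p = 8.77e-33). HIST4H4, the lone gene on chromosome 12, was at 292, 313 and 192 CPM in the kidney lines and at 42.1 to 68.7 CPM in K562. It fell by 2.23 (SE 0.23; adjusted p = 5.99e-21). HIST1H4D was at 767, 788 and 677 CPM in the kidney lines and at 187 to 235 CPM in K562. It fell by 1.86 (SE 0.14; adjusted p = 7.43e-39). The divergent neighbours HIST3H2A and HIST3H2BB fell by 1.54 and fell by 1.46, and in the size experiment HIST3H2A fell by 1.79 and HIST3H2BB fell by 1.09. HIST2H2BF, an H2B gene, fell by 1.61 in the size experiment. In each of these genes every K562 library was below every kidney-line library. They were picked by tests on most of these libraries, so this is no further support.

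**Figure D3:**
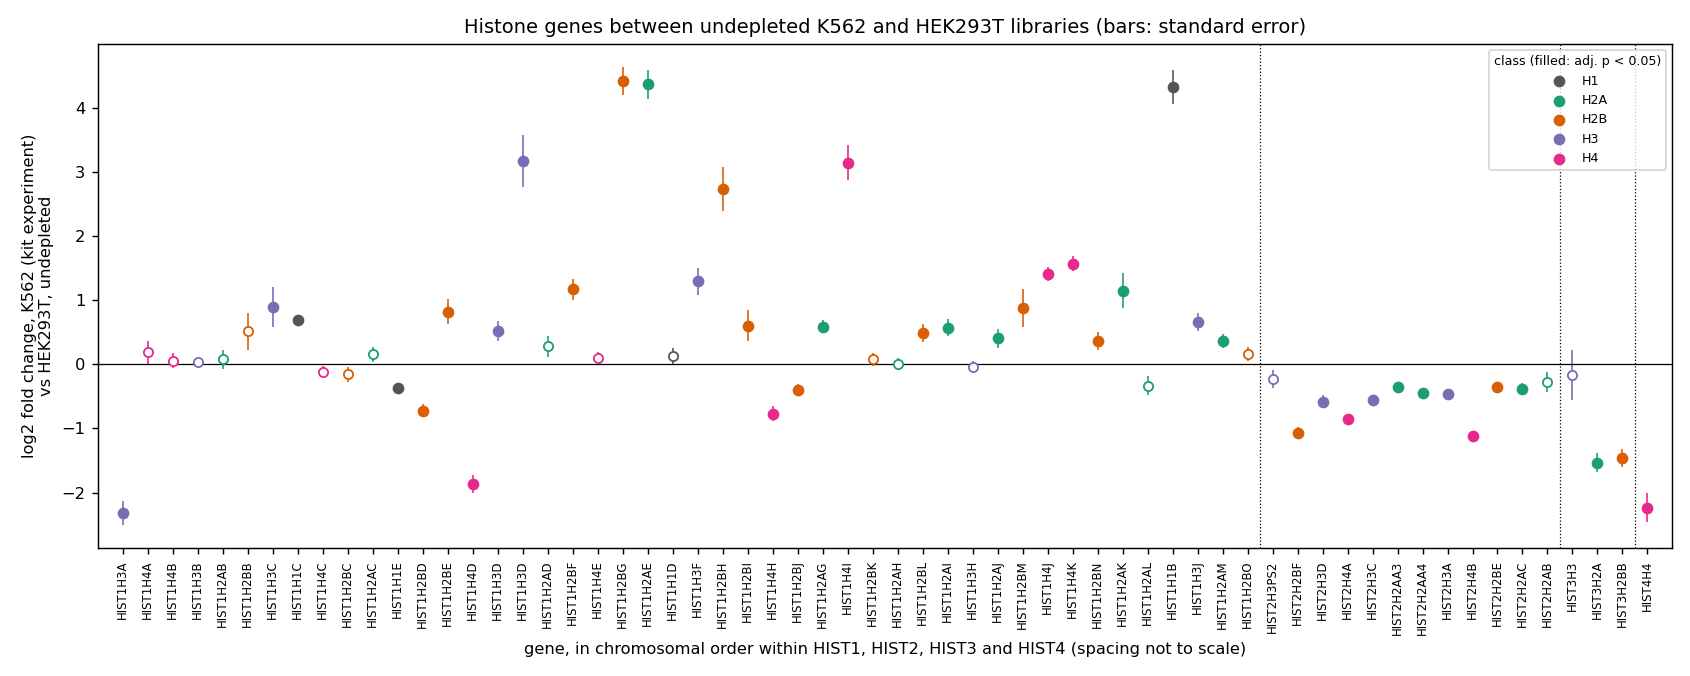
Log2 fold change between the undepleted K562 kit and HEK293T libraries (y, with standard errors) of the 62 members tested, in chromosomal order within each HIST cluster (x, not to scale), coloured by class and filled where the adjusted p was under 0.05. HIST1 holds every rise, and no HIST2, HIST3 or HIST4 gene rose.

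**Figure D4:**
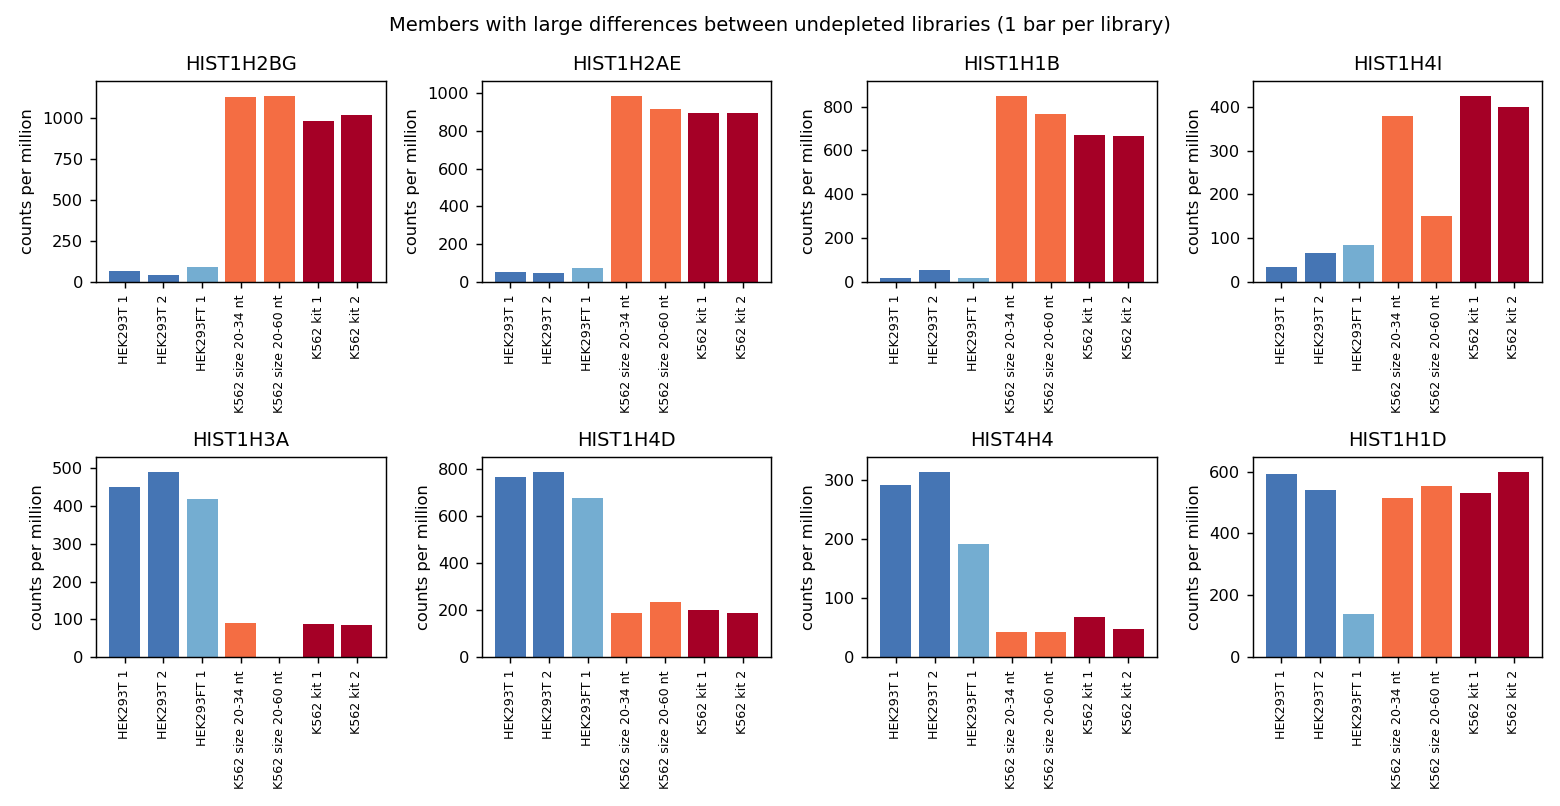
CPM (y, from 0) of 8 members in each of the 7 undepleted libraries, 1 bar per library. HIST1H2BG, HIST1H2AE, HIST1H1B and HIST1H4I are higher in K562, HIST1H3A, HIST1H4D and HIST4H4 are lower there, and HIST1H1D stands apart in HEK293FT at 141 CPM.

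Many H2A and H2B genes are neighbours transcribed away from each other, so the difference between lines was set out for such pairs. There were 12 pairs of members with starts 227 to 331 nt apart, and both genes were tested in 11. HIST1H2BF is in 2 pairs, with HIST1H2AD and with the longer HIST1H3D transcript, whose reads cannot be told from those of HIST1H2AD. Their differences had the same sign in 9 of the 11 pairs. Both genes were called in 7 pairs, and in 6 of these they moved in the same direction. The 6 include HIST1H2BF with the longer HIST1H3D transcript, while HIST1H2AD itself was not called. In this comparison 44.5% of all genes and 69.4% of members tested were called. The agreement in sign was not computed for other pairs of genes, so it has no background. HIST2H2BE and HIST2H2AC fell by 0.36 and 0.39, and HIST1H2BL and HIST1H2AI rose by 0.48 and 0.57. HIST1H2BJ and HIST1H2AG went apart, with a fall by 0.40 and a rise by 0.59. The pair HIST1H2BG and HIST1H2AE, chosen for its large rise after the values were seen, is separated by 228 bases between the annotated start of HIST1H2BG and the RefSeq start of HIST1H2AE, chr6:26216693-26216920 on GRCh38.p14 (RefSeq), given on the HIST1H2AE strand. Capitals mark the TATA motif TATAAA, the box CCAAT and the octamer ATTTGCAT, on either strand.
HIST1H2BG-HIST1H2AE: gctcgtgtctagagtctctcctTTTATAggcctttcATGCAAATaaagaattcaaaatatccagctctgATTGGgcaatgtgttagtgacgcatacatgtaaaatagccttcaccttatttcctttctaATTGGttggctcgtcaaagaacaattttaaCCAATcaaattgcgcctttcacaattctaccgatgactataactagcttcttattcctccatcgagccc
This stretch holds 1 match to TATAAA, 3 to CCAAT and 1 to ATTTGCAT. In the RefSeq promoter windows (250 bases before to 50 after a start), matched to 65 of the 71 symbols, TATAAA stood in 67.7% of member promoters and in 11.5% of all 35116 windows, CCAAT in 84.6% and 34.6%, and ATTTGCAT in 33.8% and 1.8%. All 3 were searched on both strands.

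In HEK293FT nearly all HIST2 genes were higher than in HEK293T, and HIST1H1D was lower. Of 62 members 21 were called, 19 higher and 2 lower, against 7.58% of all genes (4.77% higher and 2.81% lower). The HEK293FT library has no replicate and is assumed to vary like the other groups. Under total-count scaling, which moved the median of all genes to -0.11, the split was 14 higher and 4 lower, and without HEK293T undepleted replicate 2 it was 12 and 1. In HIST2, 11 of 12 members were higher, with a median log2 difference of 0.55, and 10 of 12 were higher under both other scalings. Both genes of each identical pair are counted in these 12, so they are not 12 separate levels. In HIST1, 8 of 46 were higher and 2 lower. HIST2H3PS2, the H3 gene that lies apart from the other HIST2 genes, was at 533 and 593 CPM in HEK293T and at 1141 CPM in HEK293FT (log2 difference 1.13 ± 0.12, SE; adjusted p = 1.35e-18). Of its windows, 29.4% were unique. HIST2H3A and HIST2H3D rose by 0.78 and 0.77, and HIST1H4K and HIST1H2BM of the HIST1 cluster by 0.82 and 0.95. HIST1H4K was at 433 and 495 CPM in HEK293T and 756 CPM in HEK293FT. The identical HIST1H4J was at 592, 482 and 727 CPM in the same libraries, so 0.82 is not the change of a single gene. HIST2H3A likewise cannot be told from HIST2H3C. The HEK293T values of HIST1H2BM rest on 6 and 16 counts.

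HIST1H1D, which encodes the linker histone H1.3, was at 592 and 541 CPM in HEK293T, 515 to 598 CPM in the 4 undepleted K562 libraries and 141 CPM in undepleted HEK293FT. The custom-oligo library of HEK293FT also had 141 CPM. From HEK293T it fell by 1.87 on the log2 scale (SE 0.18; adjusted p = 7.51e-22). HIST1H1C fell by 0.20 (SE 0.063; adjusted p = 0.0318), and HIST1H1E differed by 0.082 ± 0.063 (SE), which did not pass the test (adjusted p = 0.553).

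With NEBNext, some H2A and H4 genes rose in both lines in which it was used, and most members of both classes did not pass the test. In HEK293T, 13 of 60 members tested were called between NEBNext and undepleted, 10 higher and 3 lower, where 3.24% of all genes were called (1.5% higher and 1.75% lower). The median log2 change was 0.19 over members and 0.0026 over all genes. All 10 rises were in H2A (6 of 16) and H4 (4 of 12) genes and all 3 falls in H2B genes (3 of 16), and none of 4 H1 and 12 H3 genes was called. The 6 H2A rises include both genes of the identical pair HIST2H2AA3 and HIST2H2AA4. Class totals gave H2A going from 1.12% ± 0.0082 to 1.38% ± 0.11 of library counts, H4 from 0.998% ± 0.033 to 1.26% ± 0.060, H2B from 1.03% ± 0.034 to 0.916% ± 0.036, H3 from 1.09% ± 0.091 to 1.16% ± 0.0041 and H1 from 0.756% ± 0.0045 to 0.720% ± 0.017 (SD, n = 2 each). The ratio of the densest to the thinnest core class per kilobase was 1.66 and 1.68 in the NEBNext replicates, above the 1.13 to 1.32 of the other 6 HEK293T libraries. The calls rested on NEBNext replicate 2, since without it only HIST1H4I was called. DESeq2 called 5 of the 13, gave 10 of the 60 members no adjusted p, HIST1H4I among them, and called 0 further members.

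HIST1H4I changed most. It was at 33.3 and 65.2 CPM in undepleted HEK293T, 91.1 and 97.3 CPM with Ribo-Zero Gold, 64.0 and 117 CPM with RiboCop and 202 and 288 CPM with NEBNext, where both replicates were above all 6 other libraries. The log2 change with NEBNext was 2.31 ± 0.36 (SE; adjusted p = 2.65e-08). HIST1H4C was at 1158 and 1290 CPM undepleted and at 1545 and 1915 CPM with NEBNext (0.53 ± 0.11, SE; adjusted p = 0.000123). The other H4 genes called were HIST2H4A (0.47) and HIST1H4B (0.44). HIST2H4B, whose reads cannot be told from those of HIST2H4A, was 0.26 ± 0.092 (SE) higher and did not pass (adjusted p = 0.0977).

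Among H2A genes, HIST1H2AM was at 833 and 775 CPM undepleted and at 1073 and 1522 CPM with NEBNext, above the 572 to 807 CPM of the other depleted libraries (0.75 ± 0.13, SE; adjusted p = 8.89e-07). HIST2H2AC was at 1175 and 1166 CPM and then 1553 and 1686 CPM (0.49 ± 0.11, SE; adjusted p = 0.000806). HIST1H2AD (0.64), HIST1H2AH (0.44) and the identical HIST2H2AA4 and HIST2H2AA3 (0.35 and 0.34) also rose. The H2B genes that fell were HIST1H2BD, from 1208 and 1095 CPM to 818 and 691 CPM (by 0.61, SE 0.13; adjusted p = 0.000444), HIST1H2BJ, from 1375 and 1388 CPM to 960 and 950 CPM (by 0.52, SE 0.12; adjusted p = 0.00127), and HIST1H2BK (by 0.48, SE 0.14; adjusted p = 0.033). In each of these 3 genes both NEBNext libraries lay below the other 6, which the calls from the same libraries made likely.

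In the K562 size experiment the calls again lay in H2A, H4 and H2B. Of 61 members tested, 9 were called, 8 higher and 1 lower, where 2.85% of all genes were called (1.91% higher and 0.942% lower), and the median log2 change was 0.15 over members and 0.0043 over all genes. Under total-count scaling the split was 7 and 2. The 8 rises were in 4 of 16 H2A and 4 of 11 H4 genes and the fall in 1 of 17 H2B genes. Again none of 4 H1 and 13 H3 genes was called. H2A held 1.15% of counts undepleted and 1.59% with NEBNext at 20-34 nt, and 1.13% and 1.35% at 20-60 nt. H4 went from 0.859% to 1.24% and from 0.864% to 1.10%, and H1 from 0.918% to 0.766% and from 0.992% to 0.714%. The densest core class exceeded the thinnest 2.08 and 1.67 times per kilobase with NEBNext, against 1.31 and 1.40 times undepleted. There was 1 library per kit and size, and the count was 0 without the NEBNext 20-34 library, 20 without the NEBNext 20-60 library and 5 without the undepleted 20-34 library. In those fits size was not a term. DESeq2 called 5, all among the 9.

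HIST1H4I again stood out, at 378 (20-34 nt) and 149 CPM (20-60 nt) undepleted and 854 and 766 CPM with NEBNext (1.46 ± 0.21, SE; adjusted p = 1.51e-09). HIST1H4C was at 1041 and 1003 CPM and then 2674 and 1733 CPM (1.24 ± 0.16, SE; adjusted p = 2.97e-12). HIST1H2AG, an H2A gene, was at 1393 and 1302 CPM and then 2908 and 1893 CPM (0.95 ± 0.15, SE; adjusted p = 1.17e-07). HIST1H2BG, the H2B gene so much higher in K562, fell from 1130 and 1131 CPM to 474 and 701 CPM, by 0.99 (SE 0.17; adjusted p = 1.57e-06). The other rises were in HIST1H2AK (1.34), HIST2H2AB (1.30), HIST1H4B (0.98), HIST1H4E (0.94) and HIST2H2AC (0.56). In all 9 genes both NEBNext libraries lay on the same side of both undepleted ones. The genes were called from these same libraries, so this is no further support.

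HIST1H4B, HIST1H4C, HIST1H4I and HIST2H2AC rose in both lines, which is 30.8% of the 13 called in HEK293T and 44.4% of the 9 called in K562. The HEK293T and K562 comparisons share no library. Over the 59 members tested in both, the log2 changes had a Pearson r of 0.50 and a Spearman rho of 0.47, and 41 had the same sign. Members with shared reads are not independent points. The overlap of calls and the agreement in sign were not computed over all genes, so they have no background. The difference of the NEBNext effect between the lines, tested as an interaction added after the data were seen, was called for 3 of 62 members, where 0.671% of all genes were called. The GC content of the coding sequence was set beside the change with NEBNext too (r = 0.069 over 60 members in HEK293T and 0.17 over 61 in K562).

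**Figure D5:**
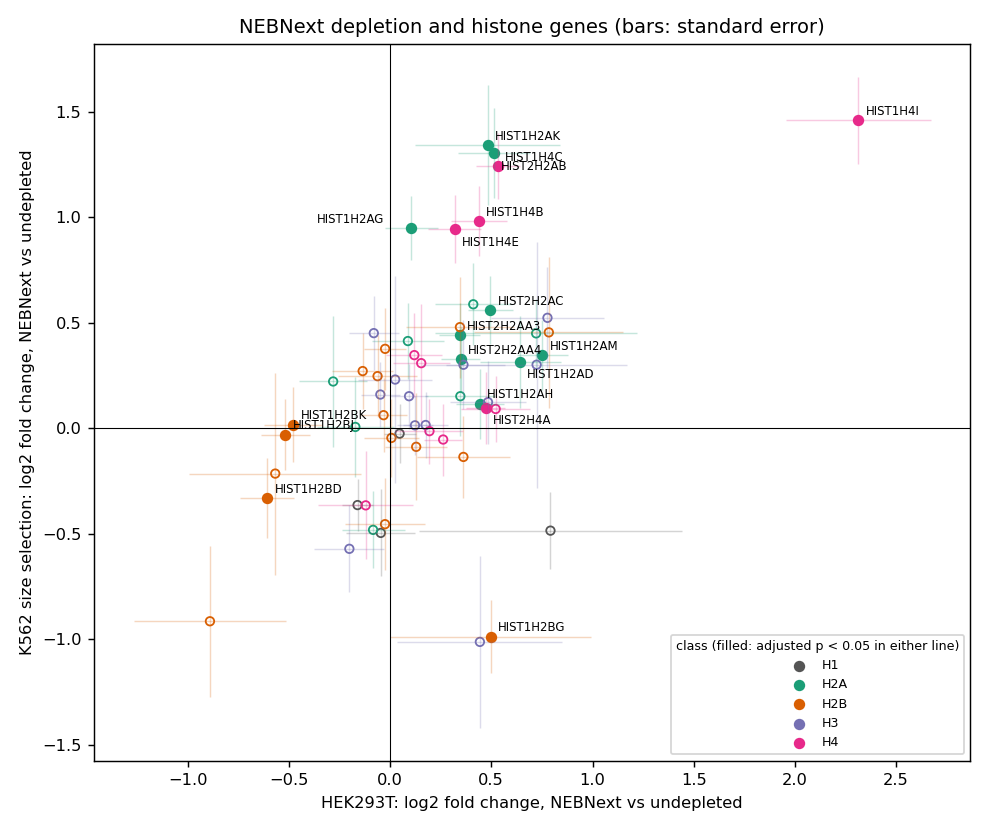
Log2 fold change of each member with NEBNext against undepleted in HEK293T (x) and in the K562 size experiment (y), with standard errors, coloured by class and filled where the adjusted p was under 0.05 in either line. The H4 and H2A genes called in both lines lie in the upper right with HIST1H4I outermost in HEK293T, and the filled H2B genes lie left of or below 0 in the line that called them.

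The kits that remove or block ribosomal RNA without a nuclease left few or no calls. With Ribo-Zero Gold 0 of 60 members in HEK293T were called by edgeR (0.068% of all genes called), 4 had an unadjusted p under 0.05, and DESeq2 called 0. With RiboCop 0 of 60 were called (0.0% of all genes), 3 had an unadjusted p under 0.05, and DESeq2 called 0. The members held 4.97% ± 0.076 and 4.89% ± 0.16 of library counts (SD, n = 2 each). In the deeper K562 kit experiment, FastSelect gave 0 of 71 calls (0.0197% of all genes, 0.00986% in each direction, 7 members at an unadjusted p under 0.05, DESeq2 0), with 1 call, HIST1H1E, when FastSelect replicate 1 was left out. riboPools gave 0 of 71 (0.0887% of all genes, 0.0789% higher and 0.00986% lower, 11 members at an unadjusted p under 0.05, DESeq2 0). The percentages of all genes in this paragraph are for adjusted p, so they give no background for the members counted at an unadjusted p. riboPools cold gave 1 of 71 (0.237% of all genes, 0.158% higher and 0.0789% lower), HIST1H2BK, which was at 858 and 895 CPM undepleted and at 749 and 761 CPM. It fell by 0.22 (SE 0.040; adjusted p = 8.26e-05). That call was lost without undepleted replicate 2 and with DESeq2. The members held 4.61% to 4.68% of counts with these 3 treatments.

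With plain Ribo-Zero Plus, which uses a nuclease, edgeR called 9 of 71 members in K562, 7 higher and 2 lower, which is 12.7% where 20.3% of all genes were called (8.97% higher and 11.4% lower). This is 1 library, assumed to vary like the replicated groups. Most changes were small. HIST2H2AB was at 322 and 326 CPM undepleted and 404 CPM with the kit (0.34 ± 0.077, SE; adjusted p = 0.000555), and HIST2H3D at 698 and 643 CPM and then 784 CPM (0.24 ± 0.056, SE; adjusted p = 0.000769). HIST1H2BO (0.21), HIST1H2AI (0.17), HIST2H2AC (0.15) and HIST1H3B (0.10) rose, and HIST1H1E and HIST1H1C fell by 0.10 and 0.07. HIST1H2BA, a testis H2B gene, was at 7.93 and 6.78 CPM undepleted and at 25 CPM with the kit, from 46 counts (1.77 ± 0.40, SE; adjusted p = 0.000497), and it had 0 counts in the 3 other Ribo-Zero Plus libraries, which allow up to 25.7 CPM with formaldehyde, 16.2 CPM with oligos and 18.2 CPM with both. Without either undepleted replicate 5 members were called, DESeq2 called 0, and a fit with 1 term for all 4 Ribo-Zero Plus libraries called 18. No H4 gene was called, and H4 held 0.848% of counts against 0.838% ± 0.019 (SD, n = 2) undepleted. Over members, the change with plain Ribo-Zero Plus had an r of 0.11 with that of NEBNext in HEK293T (n = 60) and of 0.22 with that in the K562 size experiment (n = 61).

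The other 3 Ribo-Zero Plus libraries were shallow and single, so their values stand without a test. With formaldehyde the members held 4.75% of counts, with oligos 4.66% and with both 4.31%. The library with both had the highest H3 share of the kit experiment, 1.21% against 0.890% ± 0.017 (SD, n = 2) undepleted, with the lowest H2B (0.700%), H2A (0.915%) and H1 (0.704%) shares. HIST1H3B was at 3572 CPM there, against 2173 and 2234 CPM in the undepleted replicates and 2268 to 2467 CPM in the other Ribo-Zero Plus libraries. The summed level of the 10 erythroid genes was 3821 CPM in the library with both, 6210 CPM with formaldehyde, 9376 CPM with oligos and 11184 CPM in the plain one, against 11764 and 11402 CPM undepleted, and its part in these shares was not tested. HIST1H4I was at 711 CPM with formaldehyde, 298 CPM with oligos, 418 CPM with both and 413 CPM in the plain library.

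In HEK293FT, the members held 5.74% of counts with the custom oligos and 5.65% without, and no class moved by more than 0.05 percentage points. Among 69 members with a mean of at least 10 counts, 1 was past 1.5-fold, HIST1H3E (7 and 85 counts, ratio of CPM 1.90, exact 95% interval 0.885 to 4.88), where 14.0% of all genes were (8.39% higher and 5.65% lower). Among 61 members with a mean of at least 100 counts none was, where 1.3% of all genes were (0.976% higher and 0.325% lower). The interval of the ratio, which covers counting error only, excluded 1 for 5 rows, HIST1H1E (1.06), HIST2H2BF (1.07), the longer HIST1H3D transcript (1.31), HIST1H3H (1.09) and HIST2H3PS2 (0.922). It was not computed for all genes, so these 5 rows have no background and are not read as an effect of the oligos.

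Histone genes listed as independent of replication were followed from a list of 19 genes, which are not members. H2AFX is on this list although it held the wider stem-loop form. Of 10 tested in HEK293T, 3 rose with NEBNext (3.24% of all genes called), H3F3A (H3.3; 0.60), H2AFZ (H2A.Z; 0.70) and H2AFX (H2A.X; 0.66), and none fell. Of 8 tested in the K562 size experiment, where 2.85% of all genes were called, H3F3A rose (0.61). With plain Ribo-Zero Plus H3F3A rose by 0.19 and H2AFX fell by 0.43, of 10 tested (20.3% of all genes called). None of 10 was called with Ribo-Zero Gold, RiboCop, FastSelect, riboPools or riboPools cold. Between undepleted K562 kit and HEK293T libraries, H3F3A, H3F3B and H3F3C rose and H1F0, H1FX, H2AFY2 and H2AFZ fell, 7 of 10 tested where 44.5% of all genes were called. H1F0, which encodes the linker histone H1.0 of non-dividing cells, was at 150 and 71.7 CPM in HEK293T and had 0 counts in both undepleted K562 kit libraries, which allow up to 2.64 and 2.91 CPM. In HEK293FT, H2AFX and H3F3B rose, 2 of 10 tested where 7.58% of all genes were called.

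The genes that make and process histone mRNA were taken from a list of 14 factors. Of 6 tested between undepleted K562 kit and HEK293T libraries, SLBP, the stem-loop binding protein, rose by 0.93 (SE 0.24; adjusted p = 0.000535), from 117 and 130 to 221 and 211 CPM, and CPSF3, the nuclease that cuts the 3′ end, rose by 0.91 (SE 0.24; adjusted p = 0.000553). None fell. These are 2 of 6 where 44.5% of all genes were called, 22.8% higher. In the size experiment, where 29.3% of all genes were called, CPSF3 was called and SLBP was not (168 and 85.4 CPM). Of 13 tested with plain Ribo-Zero Plus (20.3% of all genes called), ERI1, an exonuclease that trims and degrades histone mRNA, rose and NPAT, the transcriptional coactivator of histone genes, fell. None of the factors tested was called with the other kits.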

How the data were processed

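Whole-number counts per coding sequence were deposited by the authors as 4 tables of 26 libraries, 1 row per transcript. The submitters' processing notes name CASAVA 1.8, STAR and GRCh38. How shared reads and duplicates were counted is not given in the sources used here. The members and gene lists were chosen with earlier results of these data known.

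Each table was fitted whole with edgeR 4.0.16 in R 4.3.3 (quasi-likelihood test, TMM, filterByExpr with a minimum count of 10, Benjamini-Hochberg over all genes tested, adjusted p under 0.05). The K562 kit fit had 1 term per group and the size fit a term for size. A standard error (SE) was taken as the size of the log2 change divided by the square root of the F statistic. On simulated data with 200 genes changed 4-fold, the share called was 82.5% in the HEK293T NEBNext design (4410 genes), 79% in that of the K562 size experiment (3715), 90.5% for FastSelect (10142), 82.5% for Ribo-Zero Plus (10142) and 84% for K562 against HEK293T (5551). Of the genes called there, 2.37% (Ribo-Zero Plus) to 5.24% (FastSelect) had not been changed. Most member changes given for the kits were smaller than 4-fold, and the share called at smaller changes was not simulated. Replicates differed beyond sampling noise by chi-square in all groups except RiboCop (p = 0.103 over 4378 genes), whose libraries have different barcodes and totals and were both kept.

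CPM are counts over the library's count total. Named are the 2 leading members per class and line, up to 10 members called per kit by smallest p, the 5 largest rises and falls called between lines, and identical pairs. The other NEBNext calls in HEK293T, neighbouring pairs and further members were named after their values were seen. Alternatives were DESeq2 1.42.0, other scalings, no filter, fewer libraries, a replicate block and, added after the data were seen, an interaction test and the ranking of identical pairs as 1 unit. Sequences come from GENCODE 29 and RefSeq. The deposited RPM files were not used.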

Additional observations from a re-analysis of the deposited data

Results flagged for a closer look

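NEBNext had different effects on 3 histone genes in the 2 lines, by a test of the difference itself over both experiments. This test was added after the data were seen (edgeR's quasi-likelihood test, 62 members tested, 0.671% of all 5365 genes called). The effect on HIST1H2AG, HEK293T minus K562, was -0.94 ± 0.18 on the log2 scale (SE; adjusted p = 0.000119). It was 0.10 ± 0.13 in HEK293T and 0.95 ± 0.15 in K562. The difference for HIST1H4C was -0.80 ± 0.17 (SE; adjusted p = 0.00108) and for HIST1H4E -0.71 ± 0.19 (SE; adjusted p = 0.0333). Without the NEBNext 20-34 library the K562 effects were 0.51 for HIST1H2AG, 0.79 for HIST1H4C and 0.83 for HIST1H4E. Line, size selection and experiment cannot be told apart in this difference.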

How the results depend on the processing

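DESeq2 called 5 members with NEBNext in HEK293T and 5 in the K562 size experiment, 0 with riboPools cold and 0 with Ribo-Zero Plus. It gave 10 members in HEK293T and 13 in the size experiment no adjusted p, which are left out of the counts of lost calls below. With Ribo-Zero Plus as 1 kit with additive terms, 0 members were called for riboPools cold and 18 for Ribo-Zero Plus, and 4 Ribo-Zero Plus changes reversed, to -5.98 for HIST1H2BA, -0.088 for HIST2H2AC, -0.35 for HIST1H2AI and -0.086 for HIST1H2BO. That fit takes a mean over all 4 Ribo-Zero Plus libraries, so its changes are not those of the plain library alone. HIST1H2BA had 46 counts in the plain library and 0 in each of the others. Leaving out 1 library at a time gave 1 to 11 calls with NEBNext in HEK293T, 0 to 20 in the size experiment, 0 to 1 with FastSelect, 0 to 1 with riboPools cold and 5 in both cases with Ribo-Zero Plus. Between undepleted libraries it gave 19 to 30 for the size experiment against HEK293T, 0 in all 4 cases for the size against the kit experiment, and 13 to 16 for HEK293FT against HEK293T. Counting only members with at least 50% unique windows, the share of library counts was 2.99% in HEK293T, 3.06% in the K562 kit experiment and 2.98% in HEK293FT, and outside the 13 mitochondrial mRNAs all members held 4.72% in K562 and 5.71% in HEK293FT. By counts per kilobase of unique windows, the leading gene was the same in 1 of 5 classes in HEK293T, 1 in K562 and 1 in HEK293FT. With a mean of at least 100 counts, 0 members passed 1.5-fold with the custom oligos.

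A replicate block gave 15 calls with NEBNext in HEK293T and 0 with Ribo-Zero Gold, RiboCop, FastSelect and riboPools, and 1 with riboPools cold. The labels tie equal numbers to no shared culture, batch or day. Same-numbered libraries were treated as sharing only a number because 1 of the 3 HEK293T correlations of their deviations with those of the undepleted libraries was under 0.1, although 2 were above it, with r = 0.136, 0.128 and 0.0648 in HEK293T and -0.0196, -0.00628 and -0.0489 in K562. Of the named members, 43 of 129 tests under an alternative lost the call with NEBNext in HEK293T, 20 of 71 in the size experiment and 38 of 344 for the K562 kit against HEK293T, with no change of sign. In the shallowest HEK293T library 3 counts came to 25 CPM, so small changes of low members were not detectable there.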
